A study of Homo sapiens with 4 samples.

Results

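NFE2L2 encodes NRF2, the transcription factor that switches on antioxidant and detoxification genes, and 8 of its well-known target genes were followed with it here in a bile duct cancer cell line. The 9 genes were NFE2L2, NQO1, GCLC, GCLM, HMOX1, TXNRD1, SRXN1, AKR1B10 and AKR1C1. They were chosen by name, with earlier results of these data known. All are genes whose array rows carried exactly 1 gene symbol, 9 of 18377 genes named that way. Each had 1 row, so no averaging over rows was needed.

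RNA came from HuCCT1, a human cholangiocarcinoma line, and was measured on 4 Affymetrix Human Gene 1.0 ST arrays. Untreated cells, VPA, GEM and both agents together (GEM_VPA) were hybridised to 1 array each. VPA and GEM are the labels' abbreviations and are read as valproic acid, which inhibits histone deacetylases, and gemcitabine, a nucleoside analogue that blocks DNA synthesis. The sources used here name no dose, no exposure time and no number of cultures behind an array, and all groups share 1 cell line. Values are log2 intensities, so a difference of 1 is a 2-fold difference. With no replicate in any group, differences are given as sizes, with no error and no test.

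In unstressed cells the adaptor KEAP1 holds NRF2 and hands it to a CUL3 ubiquitin ligase, so the protein is made and destroyed continuously. Oxidants and electrophiles modify KEAP1, NRF2 accumulates, pairs with a small MAF protein and binds antioxidant response elements in front of genes for glutathione synthesis, thioredoxin recycling, quinone and carbonyl reduction and heme breakdown. Because this control acts on the protein, the level of the NFE2L2 transcript need not follow NRF2 activity. Many cancers of the bile duct and other organs run this program at a high level.

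The arrays fell into close pairs, which bears on every value that follows. Over 28869 rows the untreated and GEM_VPA arrays correlated at 0.996 and the VPA and GEM arrays at 0.996, against 0.984 to 0.987 for the other 4 pairs. The array labelled as the combination thus lay near the untreated one and not between or beyond the single drugs. All directions follow the labels as given, and whether each label belongs to its array was not tested. An exchange of labels would change what every ratio and departure below refers to. The robust SD of log2 ratios over genes was 0.147 for GEM_VPA over untreated and 0.158 for VPA over GEM, and these serve below as the only available scale for small differences. Biliary and epithelial markers were present, with 7 of 7 measured (among them KRT7, KRT19, EPCAM and SOX9) above the array median on each array. Their summed log2 level was 84.7 on the untreated, 89.3 on the VPA, 89.2 on the GEM and 84.3 on the GEM_VPA array. KRT7 differed most, at 1.97 for VPA and 1.61 for GEM over untreated. The defining markers of hepatocytes (ALB), leukocytes (PTPRC), fibroblasts (DCN) and endothelium (PECAM1) lay between 5.13 and 5.72 on all arrays, well under the array medians of 7.87 to 7.92. SERPINA1 and APOA1 of 6 hepatocyte markers and COL1A1 of 6 fibroblast markers reached the median on all arrays, and SERPINA1 was at 0.89 for VPA and 0.81 for GEM over untreated. Of 5 leukocyte markers, LYZ alone reached the median, on the GEM array. The summed log2 level of these 5 was 33.7, 34.6, 35.0 and 32.5 on the untreated, VPA, GEM and GEM_VPA arrays. The part of these marker differences in the results was not tested.

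The promoters of the glutamate cysteine ligase genes are shown because GCLC and GCLM were both low on the single-drug arrays, and those of TXNRD1 because it carries the same motif and differed little. The motif searched was the core antioxidant response element TGACNNNGC on both strands, in RefSeq windows of 250 bases before to 50 after the gene start (GRCh38.p14). Of 35116 windows in the RefSeq table, 4687 (13.3%) held it. Windows were matched for 7 of the 9 genes, 9 windows in all, and 3 of them, from GCLM and TXNRD1, held the motif. None of these matches overlapped the AP-1 site TGANTCA. Capitals mark the motif, and each sequence reads 5′ to 3′ on the gene's strand. For GCLC and GCLM the 250 bases before the start are given, and for TXNRD1, which has 2 annotated starts, the surroundings of 1 match in front of each. A further TXNRD1 match, TGACGGAGC on the opposite strand, overlaps the first start and is not shown.
GCLM, chr1:93909431-93909680, minus strand: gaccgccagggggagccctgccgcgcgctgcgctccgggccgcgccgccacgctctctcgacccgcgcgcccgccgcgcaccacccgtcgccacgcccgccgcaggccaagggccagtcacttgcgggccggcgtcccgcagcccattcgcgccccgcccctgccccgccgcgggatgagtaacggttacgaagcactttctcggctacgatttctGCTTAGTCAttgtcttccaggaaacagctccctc
GCLC, chr6:53545102-53545351, minus strand: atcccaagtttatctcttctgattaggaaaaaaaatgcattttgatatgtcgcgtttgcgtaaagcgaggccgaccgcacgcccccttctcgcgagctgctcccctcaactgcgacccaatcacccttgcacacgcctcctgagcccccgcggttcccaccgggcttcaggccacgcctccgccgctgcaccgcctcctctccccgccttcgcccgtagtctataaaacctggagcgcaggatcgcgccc
TXNRD1, first start, chr12:104215664-104215704, plus strand: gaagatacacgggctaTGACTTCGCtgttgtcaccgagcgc
TXNRD1, second start, chr12:104286914-104286954, plus strand: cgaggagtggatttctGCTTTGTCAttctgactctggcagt
The GCLM match begins 34 bases before the start and lies on the opposite strand, where it reads TGACTAAGC. A match of these letters is a description of the sequence, and no match in GCLC says only that the letters are absent from this window.

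**Figure D1:**
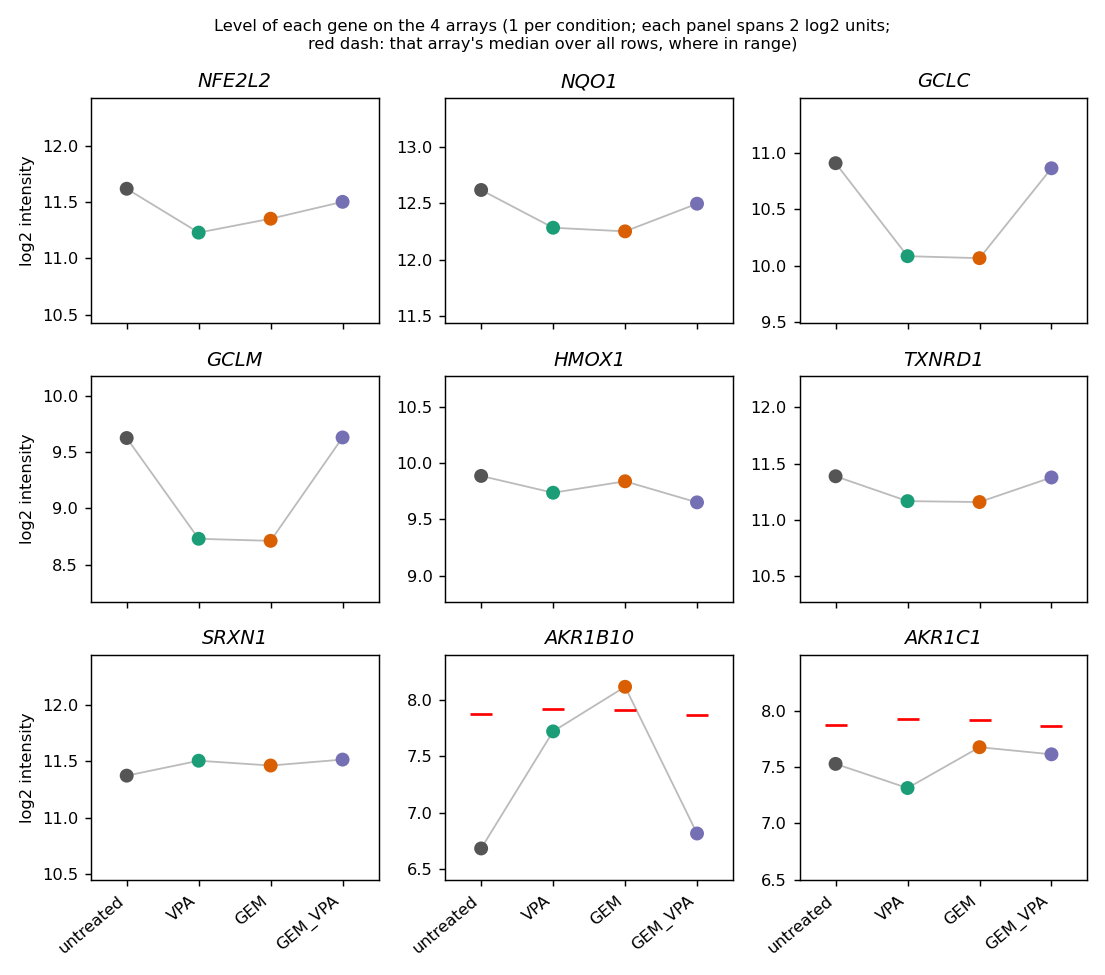
Log2 intensity of each of the 9 genes on the untreated, VPA, GEM and GEM_VPA arrays (1 array per point, each panel spanning 2 log2 units, grey lines joining the points of a gene, red dashes at the array medians where in range). GCLC and GCLM are low on the VPA and GEM arrays and AKR1B10 is high there, while HMOX1, TXNRD1 and SRXN1 stay within 0.235 log2 units.

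Among the targets well above the array median, the largest differences were in glutathione synthesis. GCLC, the catalytic subunit of the ligase that performs the first and rate-limiting step of glutathione synthesis, was at 10.91 on the untreated, 10.08 on the VPA, 10.07 on the GEM and 10.86 on the GEM_VPA array. The single-drug arrays were low and nearly equal, and the combination array was level with the untreated one. The log2 ratios over untreated were -0.82 for VPA, -0.84 for GEM and -0.05 for GEM_VPA, so GCLC was 1.77-fold and 1.79-fold lower with the single drugs. Of the genes at level, 4.06% had a lower ratio than GCLC for VPA and 4.98% for GEM. A gene was at level when the higher of its 2 values reached that array's median over all rows.

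GCLM, the modifier subunit that makes the ligase less sensitive to feedback by glutathione, followed GCLC closely. Its levels were 9.62 untreated, 8.73 with VPA, 8.71 with GEM and 9.63 with GEM_VPA. The log2 ratios over untreated were -0.89, -0.91 and 0.00, with 1.86-fold and 1.88-fold lower levels on the single-drug arrays. Both subunits missed the 2-fold limit used for counting. With a limit of 1.5-fold both were counted as lower for VPA and for GEM, where 10.4% and 11.1% of all genes at level were lower by that much.

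The comparisons of VPA without and with GEM share no array, and neither do those of GEM without and with VPA. GCLC was lower by 0.82 for VPA over untreated and higher by 0.80 for GEM_VPA over GEM. For GCLM the same contrasts gave -0.89 and 0.92. Adding GEM to VPA gave 0.78 for GCLC and 0.90 for GCLM, against -0.84 and -0.91 for GEM over untreated. Each drug thus went with a lower level when given alone and with a higher level when added to the other. The departure from additivity, GEM_VPA minus GEM minus VPA plus untreated, was 1.62 for GCLC and 1.81 for GCLM. Opposite signs, in either direction, were common. Of 11800 genes at level in either comparison, 74.1% had opposite signs for VPA without and with GEM, and of 11805 genes 84.4% had them for GEM without and with VPA.

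**Figure D2:**
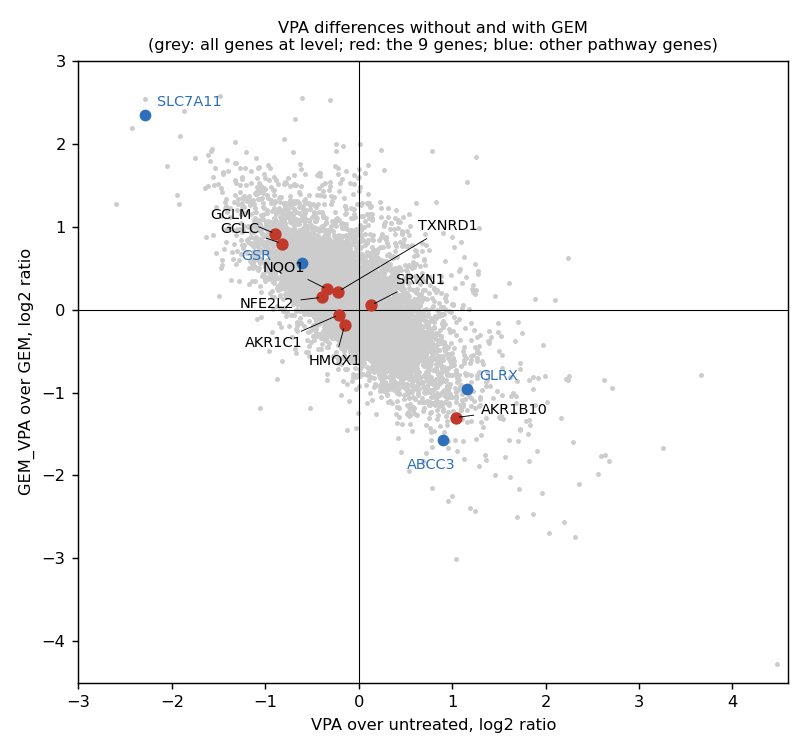
Log2 ratio of VPA over untreated (x axis) against GEM_VPA over GEM (y axis), which share no array, for each gene at level in either comparison (grey), the 9 genes (red) and 4 other pathway genes (blue). GCLC and GCLM lie upper left, AKR1B10 lower right, and the bulk of genes runs along the same falling diagonal.

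Other genes of glutathione supply and use, listed for the pathway, were mixed. Of 16 measured genes, 12 were at level for VPA over untreated, with 1 lower by 2-fold and 0 higher, and the same counts held for GEM. Of all genes at level, 2.09% were lower by 2-fold for VPA and 3.01% for GEM. The gene counted was SLC7A11, the cystine importer that supplies the ligase's substrate and a target of both NRF2 and ATF4. Its level was 10.93 untreated, 8.64 with VPA, 8.66 with GEM and 11.01 with GEM_VPA. It was 4.90-fold lower with VPA and 4.81-fold lower with GEM, low on both single-drug arrays as were GCLC and GCLM. GSR, which regenerates reduced glutathione, was at 12.76, 12.15, 12.27 and 12.83 on the untreated, VPA, GEM and GEM_VPA arrays. GSS, which completes glutathione after the ligase step, went the other way, at 11.13, 11.32, 11.51 and 10.81. The list's median was -0.01 for VPA and -0.02 for GEM over untreated.

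Reference genes give a yardstick for differences of this size. Of 9 measured, 0 passed the 2-fold limit in any of the 6 comparisons, and their medians over untreated were -0.03 for VPA, -0.07 for GEM and 0.00 for GEM_VPA. A single reference gene differed as much as GCLC with GEM, though not with VPA. HPRT1, a purine salvage enzyme, was lower by 0.46 with VPA and by 0.85 with GEM. B2M, the light chain of HLA class I, was at 0.56 and 0.52. GAPDH, PGK1, YWHAZ and SDHA stayed within 0.136 log2 units over the 4 arrays.

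The genes that reduce carbonyls split, with AKR1B10 the one target that passed the 2-fold limit. AKR1B10, an aldo-keto reductase of aldehydes and retinal that is often raised in tumours with active NRF2, was at 6.68 untreated, 7.72 with VPA, 8.12 with GEM and 6.82 with GEM_VPA. The single-drug arrays were high, GEM above VPA, and the combination was near untreated. The log2 ratios over untreated were 1.04, 1.43 and 0.13, or 2.05-fold, 2.70-fold and 1.10-fold higher. Adding GEM to VPA gave -0.91, adding VPA to GEM -1.30, and the departure from additivity was -2.34. The gene reached the array median on the GEM array alone, so the VPA ratio was not counted, and values this low are compressed by the normalization and not shown to be above background. The probes may be shared with AKR1B15, a close relative, which leaves the value uncertain for AKR1B10 alone.

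AKR1C1, a reductase of steroids and aldehydes, did not follow AKR1B10. It was at 7.53 untreated, 7.31 with VPA, 7.68 with GEM and 7.61 with GEM_VPA, below the array median on each. Its ratios over untreated were -0.21, 0.15 and 0.08. The AKR1C genes are highly similar and may share probes, which makes the value of any one of them uncertain. AKR1C2 lay between 7.20 and 7.48, and AKR1C3 at 6.12, 6.97, 6.47 and 6.69 on the untreated, VPA, GEM and GEM_VPA arrays. Both were below the array median on all 4 arrays. Of 15 measured genes for carbonyl and quinone detoxification, 8 were at level for VPA and 9 for GEM over untreated, and 0 passed the 2-fold limit in either.

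NQO1, the quinone reductase often used as a readout of NRF2 activity, was at 12.62 untreated, 12.28 with VPA, 12.25 with GEM and 12.49 with GEM_VPA. It was lower by 0.33 with VPA and by 0.37 with GEM, and GEM_VPA was -0.12 from untreated. The VPA and GEM arrays were again close, 0.03 apart, and the sizes were under those of GCLC and GCLM. NQO2, a related reductase, was likewise lower on the single-drug arrays, at 11.01, 10.46, 10.36 and 11.09. Its ratios over untreated, -0.55 for VPA and -0.65 for GEM, were the lowest of the 15 measured carbonyl and quinone genes. Of these 15, 11 were above 0 for VPA and 5 for GEM, with medians of 0.07 and -0.03.

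**Figure D3:**
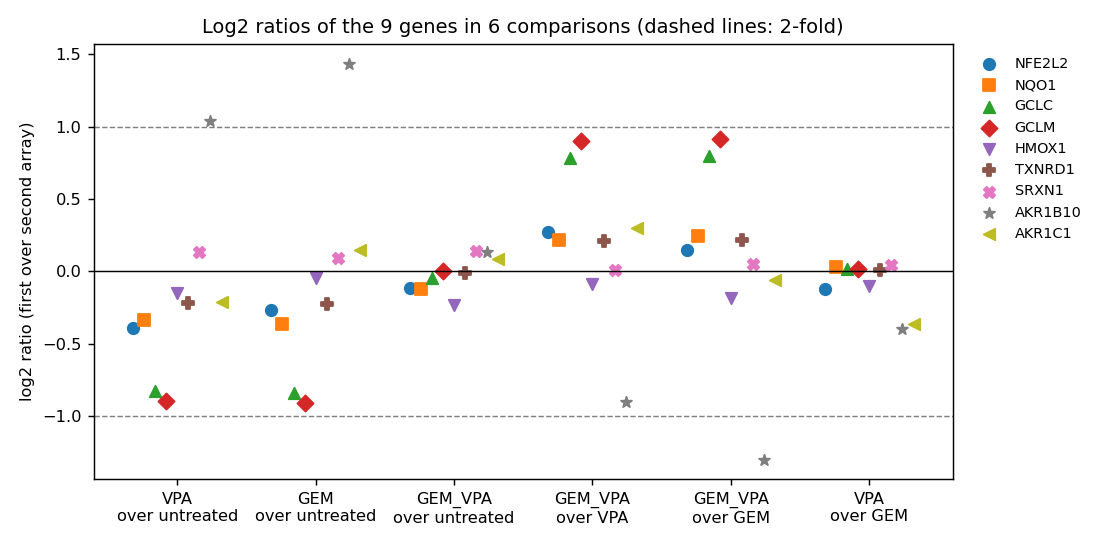
Log2 ratios of the 9 genes (symbols) in 6 comparisons between arrays (first over second, 1 array each), with dashed lines at 2-fold. AKR1B10 is above the line for VPA and GEM over untreated and below it for GEM_VPA over GEM, GCLC and GCLM lie together just inside it, and the ratios for GEM_VPA over untreated all lie between -0.23 and 0.14.

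In the thioredoxin branch the reductase moved little. TXNRD1, which recycles thioredoxin with NADPH, was at 11.39 untreated, 11.17 with VPA, 11.16 with GEM and 11.38 with GEM_VPA. It was lower by 0.22 with VPA and by 0.23 with GEM and level with untreated on the combination array, with both differences smaller than those of GCLM. Renormalizing the columns by quantiles made the TXNRD1 values -0.10 for VPA and -0.13 for GEM. SRXN1, sulfiredoxin, which repairs over-oxidised peroxiredoxins, was at 11.37, 11.51, 11.46 and 11.52. All 3 drug arrays were above untreated, by 0.09 to 0.14, which is under the robust SD of the closest arrays (0.147). After a second quantile normalization the SRXN1 values were 0.25 for VPA, 0.19 for GEM and 0.16 for GEM_VPA, above that SD, so this reading depends on the scaling.

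Of 12 further thioredoxin and peroxiredoxin genes, 11 were at level for each single drug, and 1 was higher and 0 lower by 2-fold in both. Of all genes at level, 1.9% were higher by 2-fold for VPA and 1.48% for GEM. This was GLRX, glutaredoxin, which removes glutathione from protein thiols, at 9.84 untreated, 11.00 with VPA, 10.94 with GEM and 9.98 with GEM_VPA. Its ratios over untreated were 1.16, 1.09 and 0.14. SESN1, a sestrin and p53 target, was 0.54 for VPA and 0.97 for GEM over untreated and passed the limit only for GEM_VPA over GEM, at -1.07. TXN, thioredoxin, was lower on all 3 drug arrays (-0.36, -0.22 and -0.32). PRDX1, a peroxiredoxin and NRF2 target, stayed between 13.33 and 13.40.

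HMOX1, the heme oxygenase that responds to NRF2 and to loss of its repressor BACH1, showed no difference near 2-fold. It was at 9.89 untreated, 9.74 with VPA, 9.84 with GEM and 9.65 with GEM_VPA. Unlike the other targets it was lowest on the combination array, at -0.23 from untreated, with -0.15 for VPA and -0.05 for GEM. The combination value is larger in size than the robust SD of 0.147 for that pair of arrays. Of the genes at level, 8.76% had a lower ratio there. Of 9 further heme and iron genes, 8 were at level and 0 passed the limit for VPA or GEM over untreated. Their median was 0.39 for VPA, 0.20 for GEM and 0.01 for GEM_VPA over untreated, against medians of -0.01, -0.01 and -0.03 over all genes. BLVRB, a biliverdin reductase, was at 0.65 and 0.57 with the single drugs, and FTL, ferritin light chain, at 0.06 and 0.44. TFRC, the transferrin receptor, was lower, at -0.58 and -0.37.

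The NFE2L2 transcript was at 11.62 untreated, 11.23 with VPA, 11.35 with GEM and 11.50 with GEM_VPA. It was lower by 0.39, 0.27 and 0.12, with every drug array below untreated. Renormalizing the columns by quantiles made the VPA value -0.27 and the GEM value -0.16. KEAP1, its inhibitor, was at 10.47, 9.65, 10.00 and 9.99, or -0.81, -0.46 and -0.48 from untreated. In contrast to GCLC and GCLM, KEAP1 was as low on the combination array as on the GEM array. CUL3, the ligase scaffold, was at -0.39 with each single drug and 0.10 with both. MAFG, a small MAF partner, lay between -0.20 and 0.06 of untreated, and BACH1 between -0.16 and 0.18. SQSTM1, the autophagy adaptor that sequesters KEAP1, was at -0.30, 0.00 and -0.30. Of 9 measured regulators, all were at level and 0 passed the 2-fold limit in any comparison.

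NADPH supply, on which both thiol systems draw, differed little. Of 5 measured genes 0 passed the limit in any comparison, with medians over untreated of -0.17 for VPA, -0.19 for GEM and -0.11 for GEM_VPA. PGD, of the pentose phosphate pathway, was at -0.25, -0.19 and -0.14, and ME1, malic enzyme, at -0.17, -0.12 and -0.11. Of 8 other genes known to respond to NRF2, all at level, 1 was higher by 2-fold for GEM over untreated and 0 passed the limit for VPA. Of all genes at level, 1.48% were higher by 2-fold for GEM and 1.9% for VPA. ABCC3, an export pump for glutathione and bile acid conjugates, was at 8.43 untreated, 9.34 with VPA, 9.58 with GEM and 8.01 with GEM_VPA, so the combination was the lowest. TRIM16, a ubiquitin ligase tied to NRF2 and autophagy, was at 0.46 with VPA and 1.00 with GEM, just short of 2-fold, and at -1.38 for GEM_VPA over GEM. SOD1, SOD2, SOD3 and CAT, enzymes against superoxide and hydrogen peroxide, stayed within 0.31 log2 units of untreated on each drug array.

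**Figure D4:**
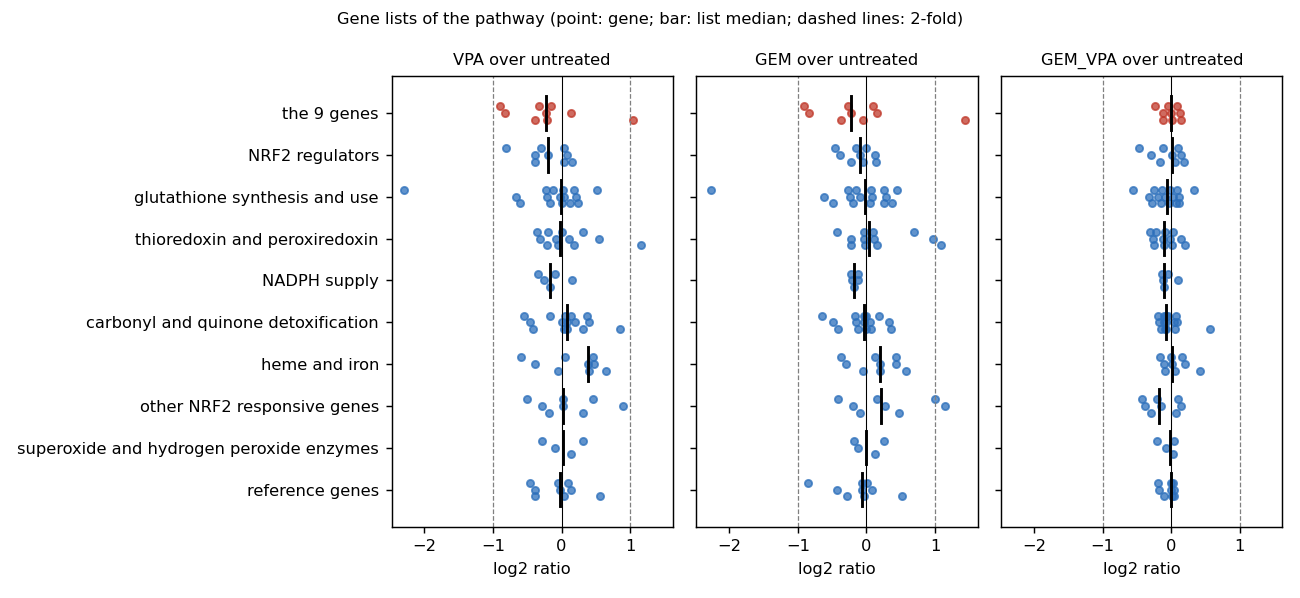
Log2 ratios over untreated for the 9 genes (red) and for 8 pathway lists and the reference genes (blue), 1 point per gene, with a bar at each list's median and dashed lines at 2-fold. SLC7A11 is the far left point for VPA and GEM, and the medians stay between -0.23 and 0.39.

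Counts of 2-fold differences are given beside those of all genes. With 7 or 8 of the 9 genes at level, they are too small to show whether the group was set apart. For VPA over untreated, 7 of the 9 were at level and 0 passed the limit, against 4% of 11611 genes at level (464 genes; 1.9% higher and 2.09% lower). For GEM over untreated, 1 of 8 at level was higher and 0 lower, where 4.49% of 11593 genes were called (1.48% higher and 3.01% lower). For GEM_VPA over untreated, 0 of 7 passed and the background was 0.148%. For GEM_VPA over VPA it was 0 of 7 with a background of 3.16%, for GEM_VPA over GEM 1 of 8, lower, with 5.38% (1.78% lower), and for VPA over GEM 0 of 8 with 0.305%. Both single calls are AKR1B10, which is at level there only through the GEM array where it is high, so these counts and their base of 8 depend on the difference itself. The genes were measured in the same 4 arrays, and comparisons over untreated share that array, so the counts do not add up as evidence. The 78 measured genes of the 8 pathway lists gave 2 calls for VPA and 3 for GEM over untreated, or 3.12% and 4.62% of those at level.

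By direction, 7 of the 9 genes were below 0 for VPA over untreated and 6 for GEM, where 51.9% and 51.4% of all 18377 genes were. The median log2 ratio was -0.22 for VPA and -0.23 for GEM, against -0.01 for each over all genes. Over genes at level alone the medians were -0.05 for VPA and -0.04 for GEM, with 55.3% and 55.4% below 0. The median of the 9 genes was -0.01 for GEM_VPA over untreated, 0.21 for GEM_VPA over VPA, 0.15 for GEM_VPA over GEM and 0.01 for VPA over GEM. After a second quantile normalization it was -0.25 for VPA and -0.13 for GEM over untreated, and 0.07 for GEM_VPA over GEM. The share of all called genes that was higher for VPA over untreated was 47.6%. Subtracting every array's median made it 38.7% and a second quantile normalization 58.4%, so the balance around 0 depends on the scaling. For GEM_VPA over VPA it was 46.9%, 58.0% and 41.4%. RNA of whole cultures was measured, so a change in every cell and a change in the share of cells with a high level cannot be told apart.

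The 2 genes with the largest range over the 4 arrays were AKR1B10 (1.43) and GCLM (0.92), and for each the 5 genes with the most similar profile were found among 11808 genes that reached the median on at least 1 array. AKR1B10 entered this search through the GEM array alone, and its range and distances rest on low values not shown to be above background. Likeness was the root mean square distance between levels over the 4 arrays after removing each gene's mean. Closest to AKR1B10 were CYP11A1 (0.025), CD300C (0.050), CASTOR3P (0.072), VGLL1 (0.081) and CLN8 (0.091). Closest to GCLM were DUSP12 (0.0095), EEF1AKMT2 (0.017), C2CD5 (0.022), TBL1X (0.023) and KAT8 (0.026). GCLC lay at a distance of 0.050 from GCLM, with 28 genes closer (0.24% of those searched). With 4 arrays in close pairs, many genes share such a profile, and the likeness is a description only.

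**Figure D5:**
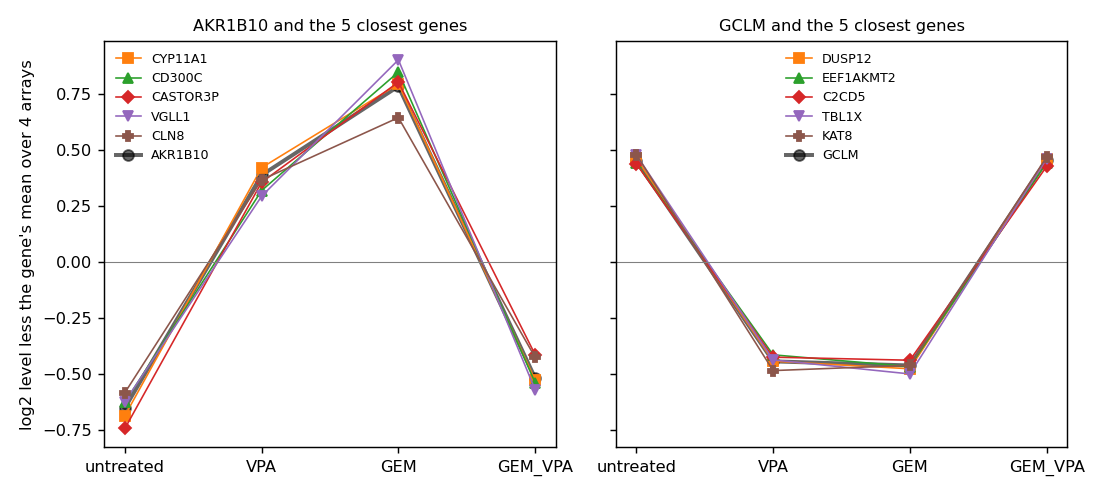
Log2 level less the gene's own mean over the untreated, VPA, GEM and GEM_VPA arrays for AKR1B10 and GCLM (black) and their 5 closest genes (coloured), 1 array per point, lines joining the points of a gene. The AKR1B10 group is highest on the GEM array and the GCLM group is low on both single-drug arrays.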

How the data were processed

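Transcript levels of 1 cell line were measured on 4 arrays, 1 per condition. The authors deposited normalized log2 intensities. GeneSpring GX 11.5 is named for this step per the labels (series text), and the submitters' processing notes name RMA. RMA subtracts background, equalises the arrays' intensity distributions and summarises the probes of a row, which compresses low values. No scanner file or detection call was used. The array rows' genome build was not given in the sources used here.

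Rows were named from the platform annotation, which gave 1 symbol to 19310 rows, several to 1752 and none to 7807. Genes took the mean of their rows. A gene was counted as different when its log2 ratio reached 1 in either direction, after the limits of 2 and 0.5 in the series text, and the higher value reached that array's median. The number of arrays limits the precision, and no statistical test was run.

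The members and lists were chosen with earlier results of these data known. Named genes were the 9 members, list genes past the limit (up to 4 per list), a fixed set of pathway genes, and the 5 closest profiles for 2 members. FTH1 and a further gene of the fixed set are not reported here. CUL3, GSS, NQO2, BLVRB, TFRC and the single reference and marker genes were named after their values were seen. Software was Python 3.11.15 with numpy 2.4.6, pandas 2.3.3 and matplotlib 3.10.9. The 7 alternatives covered normalization, row choice, level filter and fold limit.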

Additional observations from a re-analysis of the deposited data

Results flagged for a closer look

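The following genes were picked out because a drug went with a difference of at least 1.5-fold one way when given alone and the opposite way when added to the other drug. With 1 array per condition this difference was not tested. The departure from additivity (log2) was 1.62 for GCLC, 1.81 for GCLM and -2.34 for AKR1B10. After a second quantile normalization these values were 1.44, 1.76 and -2.28. Among further pathway genes that passed the 2-fold limit in some comparison the departure was 4.64 for SLC7A11, -2.11 for GLRX, -1.61 for SESN1, -1.84 for TRIM16 and -2.47 for ABCC3. The untreated and GEM_VPA arrays, and the VPA and GEM arrays, were close over all rows (correlation 0.996 for each pair). Of all genes at level, 74.1% had opposite signs for VPA without and with GEM, and 84.4% for GEM without and with VPA. These shares include differences of any size. The share of all genes that meet the 1.5-fold rule was not counted, so the genes listed are not shown to be unusual.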

How the results depend on the processing

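No paired analysis was possible because each condition has 1 array. For the 9 genes, 162 single log2 ratios were recomputed under the 3 alternatives for normalization and row choice. Of these, 158 moved by less than 0.104, and the largest move was 0.117. The limit of 0.104 is a spread per array taken from the closest pair. Those arrays differ in treatment, so it is not measurement noise alone. Signs changed in 6 of the 162, all with a size of at most 0.053. The 9 genes have 1 row each, so row choice could not change them. Centring on the array medians, which lay between 7.87 and 7.92, could not move a ratio by 0.104 either. Every larger move came from the second quantile normalization. The counts of genes depended mainly on the limits. With a 1.5-fold limit the members called were 2 of 7 at level for VPA and 3 of 8 for GEM over untreated. They were 2 of 7 for GEM_VPA over VPA and 3 of 8 for GEM_VPA over GEM. In these 4 comparisons the pathway genes called were 7 of 64, 8 of 65, 7 of 64 and 9 of 64. All genes called were 1973 of 11611, 1974 of 11593, 1750 of 11600 and 2148 of 11638. Of all genes at level, 6.64% were higher and 10.4% lower for VPA, and 5.95% and 11.1% for GEM. The shares were 9.17% and 5.91% for GEM_VPA over VPA, and 11.9% and 6.56% for GEM_VPA over GEM. All genes called were 184 for GEM_VPA over untreated and 264 for VPA over GEM. The bases do not change with the fold limit. With a 3-fold limit 0 members were called for GEM over untreated and for GEM_VPA over GEM, pathway genes called were 1 in each of the 4 comparisons named first, and all genes called were 71, 82, 51 and 105, with 1 for GEM_VPA over untreated and 4 for VPA over GEM. Without a level filter 1 member, AKR1B10, was called for VPA over untreated. With the filter at the 75th percentile AKR1B10 was lost, leaving 0 members for GEM over untreated and for GEM_VPA over GEM, and all genes called were 9 for GEM_VPA over untreated, 408 for GEM_VPA over GEM and 11 for VPA over GEM. After quantile normalization again 5 pathway genes were called for GEM over untreated in place of 3, and the cause was not tested. The low signal of AKR1B10 and AKR1C1 limits what their ratios show.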
